A study of Rattus norvegicus with 6 samples.

Results

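The genes described here encode the proteins of the ribosome, in the cytosol and in mitochondria, and were measured in the renal cortex of 6 male Sprague-Dawley (Crl:CD(SD)) rats bought at 5 weeks of age. The vehicle group of 3 rats received corn oil for 4 weeks, and the treated group of 3 rats received p-nitroanisole (nitrobenzene with a methoxy group opposite the nitro group) for the same 4 weeks, at 500 mg/kg/day. Each rat had 1 Agilent 1-colour array, and the labels give both groups the same strain, sex, housing and basal diet. The labels call the 3 arrays of a group biological replicates. Members were all genes whose symbol, found from the accession of the probe, starts with Rpl, Rps (not Rps6k), Mrpl or Mrps. The array held 153 such symbols on 360 probes. A gene was tested if, in either group or both, each of the 3 arrays measured a probe for it well above background, which left 149 members among 32197 tested rows (12207 of them named genes). All 149 were above background on all 6 arrays. They comprised 51 cytosolic large subunit genes (Rpl), 31 cytosolic small subunit genes (Rps), 42 mitochondrial large subunit genes (Mrpl) and 25 mitochondrial small subunit genes (Mrps).

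The other 4 symbols were not tested, because no probe was well above background on any array. They were Rpl39l1 and Rpl27l2, like-named copies of ribosomal protein genes, the transcribed pseudogene Rps7-ps20, and Rpl-1. Rpl-1 is a placental lactogen of the prolactin family, whose synonyms in RefSeq include Prl3d1, and no ribosomal protein. RefSeq lists 1311 rat genes whose symbols start in these ways, 923 of them pseudogenes. These counts take in cytosolic and mitochondrial symbols. Probes for cytosolic members may also bind transcripts of near-identical copies, and single-gene values of that class are uncertain to that degree. Such binding was not tested.

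The cytosolic ribosome translates the messages of nuclear genes and is built in the nucleolus from ribosomal RNA and proteins made in near-equal amounts. The mitochondrial ribosome descends from a bacterial one, is also built from nuclear-encoded proteins, and translates the few messages of the mitochondrial genome, which encode subunits of the respiratory chain. The cortex is dominated by proximal tubules, cells rich in mitochondria. Messages of cytosolic ribosomal proteins characteristically begin with a C followed by a run of pyrimidines, the 5′ terminal oligopyrimidine or TOP element, through which mTOR signalling controls their translation.

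Start sites of genes that carry the results are shown because this element was found more often in the cytosolic class, a property that the choice of members did not use. Each line gives 30 bases of the transcribed strand, 15 before and 15 from the annotated start on, from RefSeq on the build GRCr8. Capitals mark the longest run of at least 5 C or T read from a C within 5 bases of the start. The bases just before that C can be pyrimidines too, as in Rpl22.
Rps3a, chr2:173827028-173827057, minus strand: gagttgtacttccgCCCTTTTggctctcag
Rps27, chr2:177964592-177964621, minus strand: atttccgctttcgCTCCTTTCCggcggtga
Rps7, chr6:50999431-50999460, minus strand: tcgcgagagctgtgtCTCTTTCTaagccgg
Rplp0, chr12:46718376-46718405, minus strand: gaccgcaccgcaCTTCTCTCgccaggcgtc
Rpl19, chr10:83519049-83519078, plus strand: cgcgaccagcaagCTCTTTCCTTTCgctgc
Rpl22, chr5:168117946-168117975, plus strand: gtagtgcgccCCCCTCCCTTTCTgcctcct
Rpl22l1, chr2:113683181-113683210, plus strand: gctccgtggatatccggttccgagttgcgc
Rpl5, chr14:1995211-1995240, minus strand: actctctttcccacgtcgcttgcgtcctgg
Rpl3, chr7:113507976-113508005, minus strand: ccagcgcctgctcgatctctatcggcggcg
Mrpl54, chr7:9103510-9103539, plus strand: ctctggagcgctgccgtaacacggaagcat
Mrpl51, chr4:159677973-159678002, plus strand: gcgtcgcgcccgcagagtccgcaactccga
Mrps31, chr16:76324051-76324080, minus strand: tttgtgcgcgtctttgagtttgtgtttccg
Mrpl12, chr10:106256731-106256760, plus strand: ttgcgagacaaaggcatgccgcggagggct
Mrpl18, chr1:50384937-50384966, plus strand: gttgcttttcccgcagttaacatggctgcg
Mrps18c, chr14:9122892-9122921, minus strand: gggggcgcttagggaaacggaaaggaagag
The first 6 cytosolic genes held such a run, while Rpl22l1 (the paralogue of Rpl22), Rpl5 and Rpl3 did not. None of the 6 mitochondrial genes shown held it, although 14 mitochondrial members did. In Rpl5, and likewise in the mitochondrial Mrpl18, a pyrimidine stretch lay upstream of the annotated start. It began before the searched window, too early to be counted, and annotated starts can be off by some bases.

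A RefSeq start was matched for 65 of the 82 tested cytosolic genes and for 55 of the 67 mitochondrial genes. The run was present in 39 cytosolic genes (60.0%) and 14 mitochondrial genes (25.5%), against 17.0% of 27457 genes with a start in the table. Read from the first transcribed base itself, it was present in 23 cytosolic genes (35.4%) and 2 mitochondrial genes (3.64%), against 2.62% of all. Among the 300 bases around the start (250 before and 50 after), the letters GCATGCGC, the core bound by the respiratory gene regulator NRF1, were found on either strand in 9.09% of the mitochondrial and 4.62% of the cytosolic genes, against 2.67% of all. The letters CCGGAAG, a core of ETS family sites, were found in 34.5% of the mitochondrial and 27.7% of the cytosolic genes, against 9.21% of all. These are matches of letters and say nothing of binding.

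Levels are given as log2 of the background-subtracted intensity relative to the 75th percentile of the non-control probes of the same array, so that 0 is that percentile. The median level of all tested rows was -1.10 in the vehicle group. Cytosolic members had a median level of 6.73 there, 106-fold above the percentile, with quartiles of 5.96 and 7.33. Mitochondrial members had a median level of 3.53, 11.5-fold above the percentile, with quartiles of 2.08 and 4.39. In all, 80 of 82 cytosolic and 65 of 67 mitochondrial members lay above the percentile. In the treated group the medians of level were 6.63 and 3.39, so that the mitochondrial median of level was lower there while the median of its genes' differences was above 0 with this scaling. Because probes differ in how strongly they bind, the gap between these classes does not measure a ratio of transcript amounts.

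The brightest cytosolic probe was that of Rpl41, which encodes the smallest protein of the large subunit, at a level of 8.86 in the vehicle and 8.90 in the treated group. The dimmest were those of Rps12l4, a like-named copy of Rps12, at -4.35 and -4.53, and of Rpl3l, the striated muscle paralogue of Rpl3, at -3.98 and -4.28. Mitochondrial levels ran from Mrps27 (-0.62 in the vehicle and -0.57 in the treated group) to Mrpl10 (6.50 and 6.56).

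The comparison of treated with vehicle rats asks which transcripts differed in renal cortex after 4 weeks of p-nitroanisole. No ribosomal protein gene differed by limma's test at an adjusted p under 0.05, where 24 of 32197 rows (0.0745%) did. Most cytosolic members had slightly lower values in the treated group (62 of 82, median difference -0.062 on the log2 scale, or -4.20%), and most mitochondrial members slightly higher ones (49 of 67, median 0.047, or 3.34%), beside a median of 0.011 over all rows. Of all rows, 47.6% were lower and 52.4% higher. The sizes of these medians depend on how arrays were scaled, as does the sign of the mitochondrial one. The cytosolic median stayed negative under each scaling given here. With each array's median in place of its 75th percentile, cytosolic members were lower in 73 of 82 (median -0.12), mitochondrial members were higher in 33 and lower in 34 (median -0.0080), and all rows had a median of -0.045 (59.7% lower, 40.3% higher). After quantile normalisation cytosolic members were lower in 73 (median -0.14) and mitochondrial members higher in 45 and lower in 22 (median 0.030), with 53.8% of all rows lower and 46.2% higher. No member passed the test under these scalings either, where 0.0621% and 0.059% of all rows did. In bulk tissue, fewer cells of a type and less RNA per cell cannot be told apart.

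**Figure D1:**
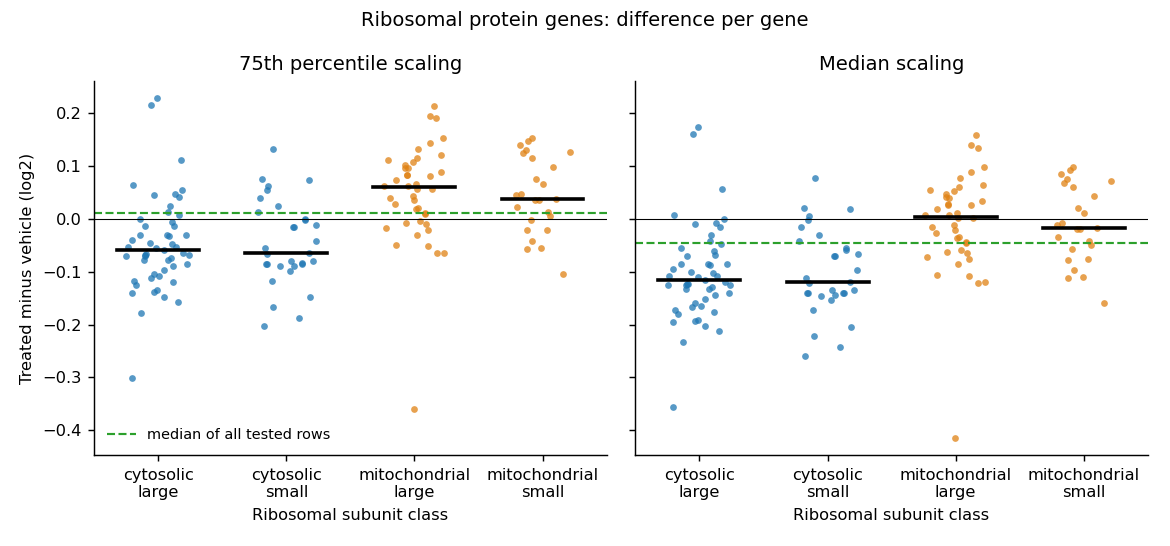
Difference between treated and vehicle group (log2, vertical axis) of each of the 149 members, by subunit class, with the 75th percentile scaling on the left and median scaling on the right. Each point is 1 gene, black bars are class medians and the dashed line is the median of all 32197 rows. Cytosolic medians lie below that line and mitochondrial medians above it in both panels, while the mitochondrial medians lie above 0 on the left and at 0.0043 and -0.017 on the right. Median scaling moves every gene and the line by the same amount, so positions relative to the line are equal in both panels by arithmetic.

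Differences were small against their errors. The absolute difference was under 0.25 in 81 of 82 cytosolic and 66 of 67 mitochondrial members, and the median standard error was 0.07 in both classes. It was less than 2 standard errors in 75 cytosolic and 64 mitochondrial members. Both subunits of each ribosome gave like medians: -0.059 for the cytosolic large and -0.065 for the small subunit, and 0.060 for the mitochondrial large and 0.038 for the small subunit. Relative to the median of all rows, the cytosolic class lay at -0.072 with the 75th percentile or the median as scaling constant. After quantile normalisation it lay at -0.13. The mitochondrial class lay at 0.037, 0.037 and 0.046 in the same order. Values under the 2 constants are equal by arithmetic, because a change of constant moves the differences of all rows alike. With normexp background correction, an alternative chosen after seeing the data, the classes lay at -0.10 and 0.016. Under all 3 scalings, 62 cytosolic members were lower and 7 higher, and 32 mitochondrial members were higher and 18 lower. The sign of the other 13 cytosolic and 17 mitochondrial members depended on the scaling. Median scaling shifted every difference by -0.055, so a gene lower with the 75th percentile had to be lower with the median too.

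At an unadjusted p under 0.05, 2 cytosolic members were lower (Rps3a and Rpl5) and none higher, while 5.76% of all rows were lower and 7.68% higher. Mrpl54 and Mrpl51 were the 2 mitochondrial members past that limit, both higher, and none was lower. These shares (2.44% and 2.99% of the classes) were below those of all rows in the same direction. This count moved with the scaling. With median scaling, 7 cytosolic members (8.54%) were lower, against 9.63% of all rows, and no mitochondrial member was past the limit, where 5.03% of all rows were higher. After quantile normalisation, 31 cytosolic members (37.8%) were lower, against 7.66% of all rows, and the same number of mitochondrial members as before, 2, were higher, against 6.09%. Counted instead by whether the 3 treated arrays lay wholly outside the range of the 3 vehicle arrays, 18 cytosolic members (22.0%) were lower, against 10.3% of all rows, and 13 mitochondrial members (19.4%) were higher, against 11.9%. In the opposite direction stood 2 cytosolic members and 1 mitochondrial member, Mrps24. With median scaling, 40 cytosolic members (48.8%) were lower without overlap, against 16.8% of all rows, while 2 mitochondrial members were higher and 4 lower, against 7.32% and 16.8%. After quantile normalisation these counts were 52 cytosolic members lower (13.5% of all rows) and 13 mitochondrial members higher (9.59%) and 3 lower. Members of a class share arrays and scaling and are not independent of each other.

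Each array was then summarised by the median of its members' levels after each gene was centred on its mean over the 6 arrays. Cytosolic medians were -0.0045, 0.030 and 0.046 on the vehicle arrays and -0.052, 0.031 and -0.056 on the treated arrays. Treated array 2 lay within the vehicle range and the other treated arrays lay below it. Mitochondrial medians were -0.034, -0.027 and -0.0059 on the vehicle arrays and -0.029, 0.089 and 0.0050 on the treated arrays. Here treated array 1 lay within the vehicle range and treated array 2 highest. Mitochondrial medians overlapped between groups under the other scalings too, while cytosolic medians did not. With median scaling, cytosolic medians were 0.027, 0.056 and 0.071 on the vehicle arrays and -0.077, 0.024 and -0.107 on the treated arrays. Treated array 2 thus lay just under the vehicle range. After quantile normalisation they were 0.052, 0.052 and 0.080 against -0.065, -0.041 and -0.081. With the percentile scaling, leaving out treated array 2 gave a mitochondrial median difference of 0.014, and leaving out treated array 1 gave 0.073. Leaving out treated array 3 gave a cytosolic median difference of -0.040.

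The difference between the classes within an array is the same for any constant by which that array is scaled. Mitochondrial minus cytosolic median was -0.029, -0.057 and -0.052 on the vehicle arrays (-0.046 ± 0.015, SD, n = 3) and 0.023, 0.058 and 0.061 on the treated arrays (0.047 ± 0.021, SD, n = 3). All treated arrays lay above all vehicle arrays, with a gap between the group means of 0.093. The gap ranged from 0.084 to 0.11 when any 1 array was left out, and was 0.087 within the slide that held 5 of the arrays. On that slide the vehicle arrays lay in row 1 and the treated arrays in row 2, so treatment and row cannot be told apart. No p is given for the gap, because the classes were chosen with earlier results of these data known. It shows unequal values of the classes and not which of them differed.

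**Figure D2:**
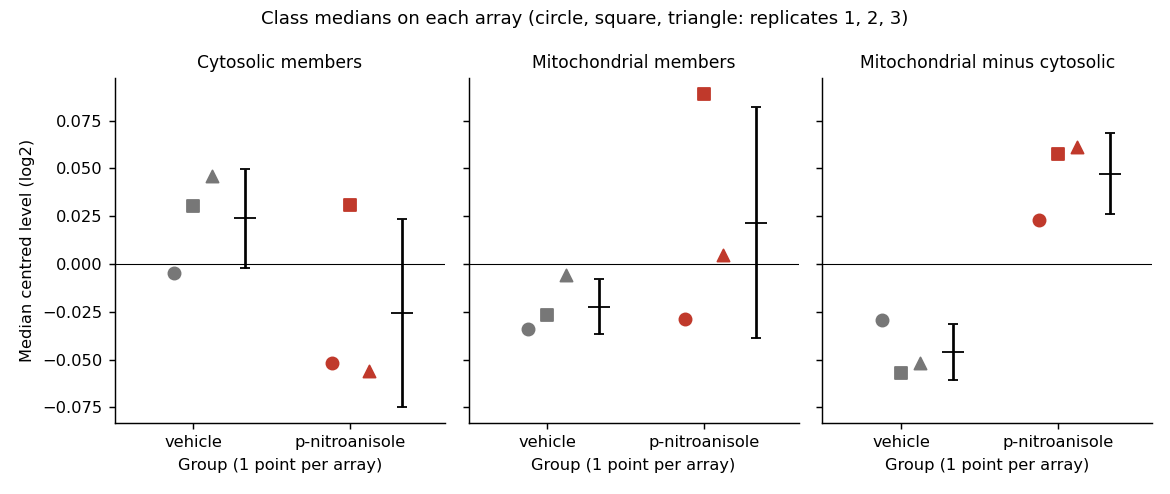
Median centred level (log2) of cytosolic and of mitochondrial members on each of the 6 arrays, and the mitochondrial minus cytosolic value of each array, with each group's mean ± SD (n = 3). With the percentile scaling, medians of both classes overlap between groups. Cytosolic medians do not overlap with median scaling or after quantile normalisation. The within-array values run from -0.057 to -0.029 on vehicle arrays and from 0.023 to 0.061 on treated arrays.

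Among the proteins of the cytosolic small subunit, Rps3a, a protein of the subunit's platform, had the smallest adjusted p of the class. Its levels were 7.06, 7.08 and 7.09 on the vehicle arrays and 6.85, 6.97 and 6.81 on the treated arrays. All treated arrays lay below all vehicle arrays, and the group means differed by 1.15-fold (log2 difference -0.20, SE 0.07, limma adjusted p = 0.309), from 1 probe. Rps7, which mutates in Diamond-Blackfan anaemia, had levels of 6.115, 6.142 and 6.157 in the vehicle and 5.879, 6.112 and 5.924 in the treated group. Its groups did not overlap, although treated array 2 lay just under the lowest vehicle array (difference -0.17, SE 0.08, adjusted p = 0.440). Its second probe gave -0.06, also without overlap. Rps27, a zinc finger protein of the small subunit, had levels of 6.76, 6.77 and 6.79 against 6.66, 6.70 and 6.61. It was lower on every treated array (difference -0.12, SE 0.06, adjusted p = 0.459), and its 3 probes gave -0.16 to -0.07.

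In 6 further small subunit genes the groups overlapped on the brightest probe, which stands for the gene. Rps6, the substrate of the mTOR-dependent S6 kinases, had levels of 7.60, 7.66 and 7.71 in the vehicle and 7.54, 7.65 and 7.51 in the treated group. Treated array 2 lay within the vehicle range (difference -0.09, SE 0.07, adjusted p = 0.626), while the other 2 probes of the gene were lower without overlap (-0.12 and -0.14). Rps19, the gene most often mutated in that anaemia, differed by 0.03 (SE 0.08, adjusted p = 0.911) with the 75th percentile and by -0.03 with the median as scaling constant, and 2 of its other probes gave -0.08 and -0.07. Rpsa, also known as the laminin receptor, differed by 0.08 (SE 0.08, adjusted p = 0.690). Rps3, which also has a reported role in DNA repair, differed by -0.08 (SE 0.07, adjusted p = 0.644), Rps24 by 0.07 (SE 0.14, with a second probe at -0.05) and the copy Rps12l4 by -0.19 (SE 0.29).

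Rpl5 and Rpl11 join 5S ribosomal RNA in a particle that can also bind Mdm2, the regulator of p53. Rpl5 levels were 5.51, 5.59 and 5.58 on the vehicle arrays and 5.38, 5.41 and 5.42 on the treated arrays. The groups did not overlap (1.11-fold lower, difference -0.16, SE 0.06, adjusted p = 0.350), and all 4 probes were lower, by -0.23 to -0.14. Rpl11 levels were 6.93, 6.95 and 7.04 against 6.90, 7.05 and 6.88. The 2 genes of this particle thus gave unlike values, Rpl11 overlapping between groups (difference -0.03, SE 0.08, adjusted p = 0.885), and the difference between them was not tested.

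Of other large subunit genes, Rpl7 had levels of 6.75, 6.75 and 6.76 in the vehicle and 6.64, 6.67 and 6.51 in the treated group. Rpl3, whose protein reaches close to the peptidyl transferase centre, had levels of 6.14, 6.15 and 6.16 against 6.02, 6.12 and 5.90. Neither gene's groups overlapped, and treated array 3 was lowest in both, on the brightest probe of each gene. Another probe of each overlapped (-0.07 for Rpl7 and -0.11 for Rpl3). The differences were -0.15 (SE 0.07, adjusted p = 0.425) for Rpl7 and -0.14 (SE 0.08, adjusted p = 0.488) for Rpl3. Within the slide that lacked treated array 3 they were -0.10 and -0.08, on arrays where treatment and slide row cannot be told apart.

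The stalk of the large subunit, which recruits translation factors, is made of Rplp0, Rplp1 and Rplp2. Rplp0 levels were 8.37, 8.44 and 8.44 in the vehicle and 8.32, 8.46 and 8.25 in the treated group (difference -0.07, SE 0.08, adjusted p = 0.720). Rplp1 gave 8.46, 8.54 and 8.48 against 8.53, 8.62 and 8.51 (difference 0.06, SE 0.07, adjusted p = 0.696). Rplp2 gave 7.65, 7.64 and 7.66 against 7.60, 7.66 and 7.60 (difference -0.03, SE 0.06). All 3 stalk genes overlapped between groups on the brightest probe, but the second probe of Rplp2 was lower without overlap (-0.11), and the value of Rplp1 turned to -0.05 after quantile normalisation.

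Paralogues were set side by side. Rpl22, an RNA-binding protein of the large subunit, had levels of 6.05, 6.08 and 6.14 in the vehicle and 5.94, 6.01 and 6.03 in the treated group, without overlap (difference -0.10, SE 0.06). Its paralogue Rpl22l1 had levels of 4.88, 4.72 and 4.92 against 4.89, 4.99 and 4.97, with overlap (difference 0.11, SE 0.08), and its 4 probes gave 0.09 to 0.12. Neither passed the test, and the difference between the paralogues was not tested. Rpl36a differed by -0.07 (SE 0.07) and its copy Rpl36al1 by 0.01 (SE 0.07), or -0.04 with median scaling. Rpl39 differed by 0.05 (SE 0.07), or -0.01 with median scaling, and Rpl10, which joins the large subunit late in its assembly, by -0.01 (SE 0.08). All 4 overlapped between groups on the brightest probe. The other 4 probes of Rpl36a disagreed: 3 were lower without overlap (-0.12, -0.13 and -0.17), and a dim one gave 0.20. Rpl3l, near the lower end of detection, differed by -0.30 (SE 0.21, adjusted p = 0.568), the lowest value of the cytosolic class. Rpl19 had the highest, 0.23 (SE 0.11, adjusted p = 0.418), from levels of 7.31, 7.32 and 7.37 against 7.60, 7.36 and 7.73. Its groups overlapped, and its other 3 probes gave -0.04, -0.06 and -0.12, so the probes of this gene disagreed. The copy Rpl30l3 differed by -0.18 (SE 0.32). Rpl37al2, a like-named copy of Rpl37a, had levels of 2.03, 2.07 and 1.96 against 1.97, 1.96 and 2.79. Its difference of 0.22 (SE 0.24, adjusted p = 0.715) rested on treated array 3 and was -0.06 without that array.

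**Figure D3:**
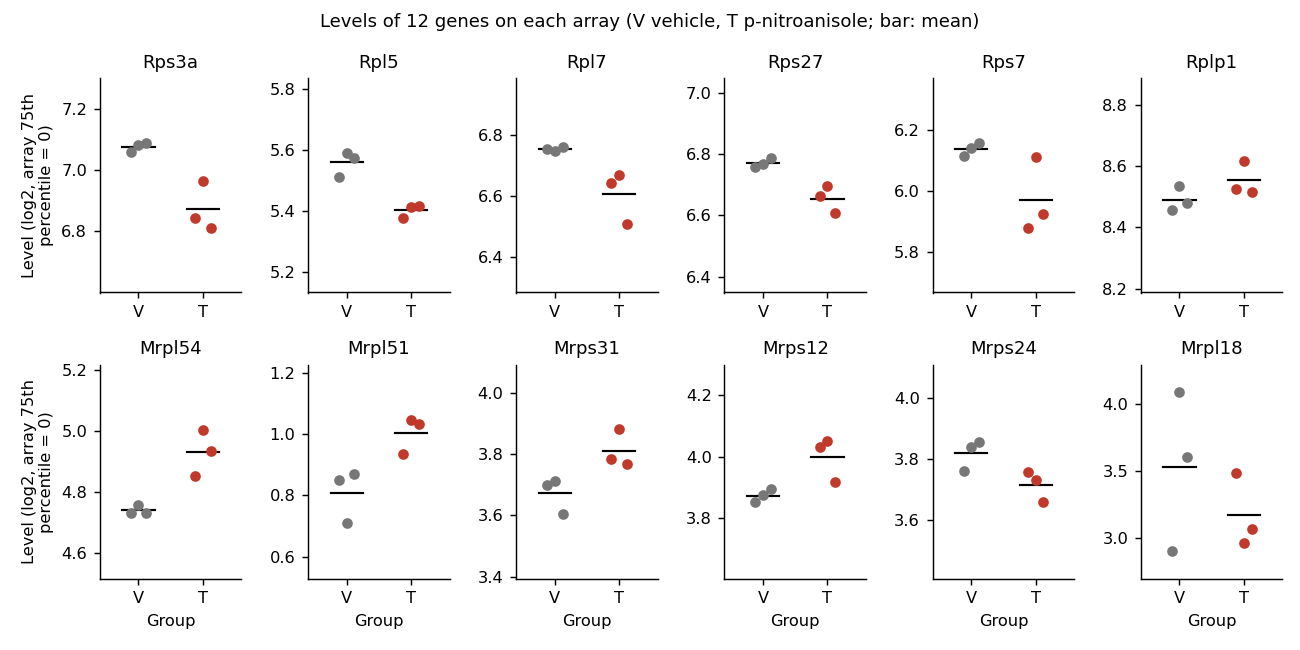
Levels (log2, array 75th percentile = 0) of named members on each array, vehicle and treated arrays side by side, each point being 1 array and each bar a group mean. Rps3a and Rpl5 lie lower and Mrpl54 and Mrpl51 higher on every treated array, with group means 0.16 to 0.20 apart.

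Among mitochondrial large subunit genes, Mrpl54 had the smallest adjusted p. Its levels were 4.732, 4.757 and 4.730 on the vehicle arrays and 4.853, 5.002 and 4.934 on the treated arrays. All treated arrays were higher, and the group means differed by 1.14-fold (difference 0.19, SE 0.07, adjusted p = 0.319). The groups stayed apart with median scaling at 0.13. Its second probe gave 0.09, with overlap. Mrpl51 had levels of 0.85, 0.71 and 0.87 against 0.93, 1.05 and 1.03. It too was higher on every treated array under both scalings (difference 0.19, SE 0.08, adjusted p = 0.353). Mrpl12, a stalk protein also reported to bind the mitochondrial RNA polymerase, had levels of 5.539, 5.518 and 5.515 against 5.543, 5.716 and 5.601. Its treated array 1 lay barely above the vehicle range (difference 0.10, SE 0.07, adjusted p = 0.584).

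Mrpl18, known for a part in the import of 5S ribosomal RNA, had the lowest value of the mitochondrial class. Its levels scattered widely, at 2.90, 4.09 and 3.60 in the vehicle and 3.48, 2.96 and 3.07 in the treated group. The difference of -0.36 had an SE of 0.32 (adjusted p = 0.647), a second probe was lower without overlap at -0.19, and leaving out 1 array gave -0.67 to -0.08. The highest value was that of Mrpl52, 0.21 (SE 0.20, adjusted p = 0.664), from levels of 1.42, 1.90 and 1.42 against 1.47, 2.04 and 1.87, which overlapped. Mrpl30 and Mrpl36 each had overlapping groups, with differences of -0.07 and -0.06.

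In the mitochondrial small subunit, Mrps12, the counterpart of the bacterial protein at the decoding centre, had levels of 3.85, 3.87 and 3.89 in the vehicle and 4.03, 4.05 and 3.92 in the treated group. It was higher without overlap on its brighter probe (difference 0.13, SE 0.07, adjusted p = 0.465), while the other probe overlapped (0.04, SE 0.08). Mrps31 gave 3.70, 3.71 and 3.60 against 3.79, 3.88 and 3.77 (difference 0.14, SE 0.07, adjusted p = 0.444), and Mrps22 gave 0.52, 0.37 and 0.52 against 0.55, 0.61 and 0.70 (difference 0.15, SE 0.08, adjusted p = 0.470). Both were higher without overlap. By its brightest probe and with the 75th percentile scaling, Mrps24 was the 1 mitochondrial member lower without overlap (4 members with median scaling, 3 after quantile normalisation and 2 by the mean of a gene's probes), at 3.761, 3.838 and 3.856 against 3.756, 3.731 and 3.659 (difference -0.10, SE 0.07). Mammals have 3 related Mrps18 genes. Mrps18a, Mrps18b and Mrps18c differed by 0.07, 0.15 and 0.08, and only Mrps18c of them had groups that did not overlap. Mrps7 (0.04), Mrps9 (-0.06) and Mrps30 (-0.06) overlapped too.

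Where several probes were tested, all probes of a gene had the same sign in 49 of 72 cytosolic and 24 of 34 mitochondrial genes, with a median spread between probes of 0.08 in each class. The spread was thus about as large as the class medians. The largest was 0.52, in Mrps2, where 1 probe gave -0.46 with a standard error of 0.69.

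Signal strength was examined because cytosolic members are among the brightest probes. The brightest 5% of rows (1610, with 71 cytosolic and 6 mitochondrial members) had a median difference of 0.037, with 41.3% lower, and the brightest 20% had 0.0055, with 48.2% lower. With median scaling the medians of these rows were -0.018 and -0.050, beside -0.12 for the cytosolic class. Quantile normalisation, which changes values by their rank on the array, moved the cytosolic median to -0.14. The part of signal strength in the class values was not tested.

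**Figure D4:**
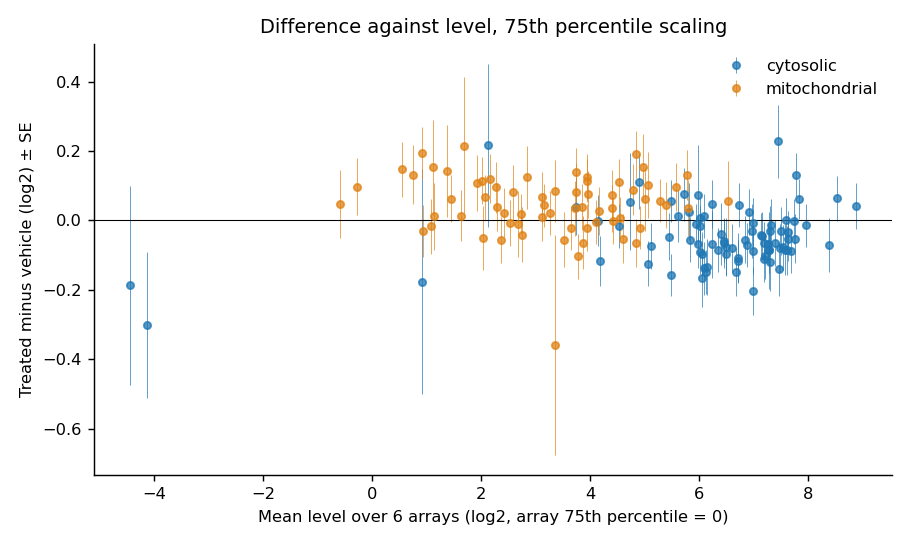
Difference between treated and vehicle group (log2, with its SE) of each member against its mean level over 6 arrays (log2, array 75th percentile = 0). Cytosolic members crowd at the bright end, mostly below 0, and the errors widen for the dimmest members.

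Within the classes, members with and without the pyrimidine run at the start had medians close to each other. Cytosolic genes with the run had a median difference of -0.068 (29 of 39 lower) and those without it -0.043 (20 of 26 lower). Mitochondrial medians were 0.045 with the run (14 genes) and 0.039 without it (41 genes).

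Other genes of translation were taken from lists of ribosome partners. Of 41 tested cytosolic translation factors, 26 were lower and 15 higher (median -0.045), and of 63 cytosolic ribosome assembly genes 41 were lower and 22 higher (median -0.041), beside 47.6% of all rows lower. With median scaling these counts were 38 lower and 3 higher (median -0.10), and 53 lower and 10 higher (median -0.097), beside 59.7% of all rows lower. None of either list passed the test. Eif3e, a subunit of initiation factor 3, was lower on every treated array (difference -0.21, SE 0.07, adjusted p = 0.314). Eif4ebp1, the mTOR-controlled repressor of cap-dependent initiation, overlapped between groups (difference -0.34, SE 0.18, adjusted p = 0.465), as did the assembly gene Dhx33 (-0.28, SE 0.28). Dkc1, the pseudouridine synthase dyskerin, had levels of 2.83, 2.76 and 2.75 against 1.41, 1.52 and 2.51. Treated arrays 1 and 2 lay far below the vehicle range and treated array 3 slightly below it (difference -0.97, SE 0.29, adjusted p = 0.273).

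Mitochondrial partners gave no call either. Of 31 tested mitochondrial translation factors, 20 were higher and 11 lower (median 0.044, or -0.012 with median scaling), and of 16 mitochondrial tRNA synthetases 6 were higher and 10 lower (median -0.0075). With median scaling the factors were higher in 15 and lower in 16, and the synthetases higher in 3 and lower in 13. Gfm2, the factor that recycles mitochondrial ribosomes, had levels of -2.04, -1.71 and -1.96 against -1.44, -1.39 and -1.39. It was higher on every treated array (difference 0.50, SE 0.10, adjusted p = 0.159). Tfb1m, which methylates the small subunit's ribosomal RNA, was also higher on every treated array (difference 0.26, SE 0.09, adjusted p = 0.325). Of the synthetases, Wars2 was lower (-0.25, SE 0.12, adjusted p = 0.418) and Fars2 higher (0.18, SE 0.08, adjusted p = 0.410) without overlap. Among 8 ribosome proteins under other names, 5 were higher and 3 lower (3 higher and 5 lower with median scaling), and Rack1, the scaffold on the small subunit, was lower on every treated array (difference -0.13, SE 0.06, adjusted p = 0.448). Ptcd3 of the mitochondrial small subunit overlapped (0.13, SE 0.13).

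Markers of other cells were summed on each array. The tissue label held: all 8 markers of renal cortex cells were tested. Their summed levels were 1283 to 1375 times the array's 75th percentile on vehicle and 1389 to 1401 on treated arrays. These sums were higher on treated arrays without overlap. By group means, 5 of these markers were higher and 3 lower (4 and 4 with median scaling), none past the test. Summed in the same unit, 6 of 7 red cell precursor markers reached 9.89 to 12.2 on vehicle and 16.6 to 18.8 on treated arrays, and 1, Alas2, was past the test. Most of the vehicle sum was Slc4a1, which kidney intercalated cells also express and whose difference was 0.0029 (-0.05 with median scaling). Without it, a choice made after seeing the data, the other 5 markers summed to 1.97 to 2.70 on vehicle and 7.08 to 11.6 on treated arrays, with differences of 1.39 to 2.09. All 6 tested of 7 markers of dividing cells were higher (2.59 to 3.26 against 5.28 to 6.45, 1 past the test), as were all 3 tested of 5 neutrophil markers (0.433 to 0.583 against 1.27 to 1.37, 1 past the test). All 7 markers of T and NK cells had lower means, none past the test, and their summed levels overlapped (2.23 to 2.40 against 1.84 to 2.39). Their median centred level was -0.31, 0.31 and -0.48 on treated arrays 1 to 3, so treated array 2 was also the highest here. It was likewise the highest treated array for the neutrophil and dividing cell lists. For the red cell precursor, macrophage, B and plasma cell and renal cortex lists it was not. Of macrophage markers 4 of 6 were tested, 2 higher and 2 lower (3.14 to 3.46 against 2.38 to 3.15), and of B and plasma cell markers 2 of 5 (0.0736 to 0.117 against 0.0774 to 0.0902). The sums of both lists overlapped. Top2a, Ngp, Mpo, Cd163, Marco, Cd79a, Ms4a1 and Jchain were not among the tested genes. The part of these cells in the ribosomal values was not tested.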

How the data were processed

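RNA of the renal cortex of 6 rats was measured on Agilent 1-colour (Cy3) arrays with 61537 non-control probes. Each array's deposited intensity values, background-subtracted by the authors with Agilent Feature Extraction 10.7 (per the submitters' processing notes), were used as log2 of the processed signal minus the array's 75th percentile. The deposited value table holds the same signal divided by 1 constant per array, within 0.0241% of that percentile; its column medians were 0.105 to 0.111, and it was an alternative. No array had saturated probes, and 66.4% to 69.2% of probes were well above background. The number of arrays limits precision.

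Of the probes, 28206 (45.8%) were named by accession through RefSeq (GRCr8). A probe was tested if well above background on each of the 3 arrays of either group, and the brightest tested probe stood for a gene. Groups were compared with limma 3.58.1 (R 4.3.3; lmFit, eBayes, no covariate, two-sided, Benjamini-Hochberg over 32197 rows). On simulated data with 67 genes changed by 0.5 (log2), 2 were recovered, and of 67 changed by 1, 38. Genes named were members past the test, the 3 highest and 3 lowest differences of each of the 4 classes, members preset by role or as paralogue pairs, the 2 largest absolute differences of each list of partner genes, and members whose probes differed by over 0.5. Outside that rule, the members at the extremes of level were named after their values were seen, and some genes that the rule or lists hold are not reported here. Members and lists were chosen with earlier results of these data known. Mean spot signal was not used here, so the normexp alternative used median spot signal, a choice made after seeing the data. Vehicle arrays and treated arrays 1 and 2 shared a slide, and treated array 3 was alone on another. On the shared slide, vehicle arrays were in row 1 and treated arrays in row 2, so treatment and row cannot be told apart there. Replicate numbers did not pair arrays (correlations of -0.0088, 0.040 and -0.010 between same-numbered arrays).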

Additional observations from a re-analysis of the deposited data

How the results depend on the processing

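No ribosomal protein gene was called under any alternative but slide row as a block, which called 1, Rpl37al2 (difference 0.77, adjusted p = 0.0268), on the strength of treated array 3, the only treated array in its row. The cytosolic median difference moved from -0.062 to -0.12 with median scaling and -0.14 with quantile normalisation, the mitochondrial one from 0.047 to -0.0080 with median scaling, and the difference between classes from 0.093 to 0.15 with quantile normalisation. The cause was not tested. Other alternatives, normexp and canonical symbols only among them (both chosen after seeing the data), kept each within the spread between arrays. Leaving out 1 array gave -0.083 to -0.040, 0.014 to 0.073 and 0.084 to 0.11.

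The count of 24 rows called over all genes was unstable: 82 with normexp, 2 with no filter on dim probes, 14 with the mean of a gene's probes, 316 with trended and robust variance, 9 with slide and 999 with slide row as a block, 0 at an adjusted p under 0.01, and 0 to 9 when 1 array was left out (1, 0 and 7 without vehicle 1, 2 and 3, and 0, 5 and 9 without treated 1, 2 and 3). With the replicate block, 1 row and 0 ribosomal genes were called. The class medians of -0.062 and 0.047 could not change, because each block holds 1 array of each group. The replicate numbers do not pair the arrays. With 3 arrays a group, differences near the members' standard errors of 0.07 are not detectable at an adjusted p.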
